A study of Mus musculus with 4 samples.

Results

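CTCF sites listed in only 1 of 2 splenic cell types came mainly from plasmablasts in some 1 Mb windows of the mouse genome. These windows are described here. They were picked by a fixed rule from 1 CTCF library per cell type, and which ones qualified depended strongly on the window borders. The autosomes 1 to 19 were divided into fixed windows of 1 Mb from position 0, and each CTCF peak was placed by its midpoint. A peak was shared if it overlapped a peak of the other cell type by at least 1 bp. A window was a member if it held 10 or more unshared peaks and at least 60% of them were plasmablast only. Of 773 windows with enough unshared peaks, 27 met the rule, which is 3.49%, whereas 77.4% of the 773 windows had 60% or more of their unshared peaks in B cells only. The 27 windows held 533 of the 31086 plasmablast peaks and 408 of the 36381 B cell peaks, together 941 of 67467 listed peaks.

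The plasmablasts were CD138+ spleen cells sorted by flow cytometry 3 days after LPS, injected retro-orbitally at 50 µg into C57BL/6 mice of 6 weeks. The B cells were the CD43- fraction of spleens of C57BL/6 mice of the same age, taken on magnetic beads, and no LPS is named for them. A CTCF antibody library and an input library were made from either cell type, and the peaks of the CTCF libraries are what is described. The labels do not say how many animals went into a library, and they give the plasmablast libraries a HiSeq instrument and the B cell libraries a Genome Analyzer, so instrument and cell type cannot be told apart. The files hold no expression values, so neither cell type could be checked against its markers. With 1 library per cell type there is no replicate spread, and every difference below is a description with no test.

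CTCF is a zinc finger protein that binds a long DNA motif and stops cohesin as it extrudes chromatin loops, so its sites commonly lie at loop anchors and domain borders. In the B lineage it is known for its many sites in the immunoglobulin loci, where loops bring distant variable gene segments towards the recombining joining segments. Plasmablasts are the dividing, antibody-secreting cells that activated B cells become, and the change comes with a large shift in gene expression and nuclear organisation.

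The rule fixed the sign of the excess, so the window counts describe the members and support nothing further. Over the 27 windows there were 222 plasmablast only peaks, 97 B cell only peaks and 311 shared sites. The plasmablast only share of the unshared peaks was 69.6% in these windows and 28.6% in the other 746 windows. By construction it started at 60%, which 7 of the 27 windows had exactly. The 6 windows just outside the rule each held 7 plasmablast only and 5 B cell only peaks, a share of 58.3%. Per window the members had 6 to 13 plasmablast only peaks (median 8) and 2 to 6 B cell only peaks (median 4). In the other 746 windows the medians were 4 and 10, so the members had both more plasmablast only and fewer B cell only peaks.

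**Figure D1:**
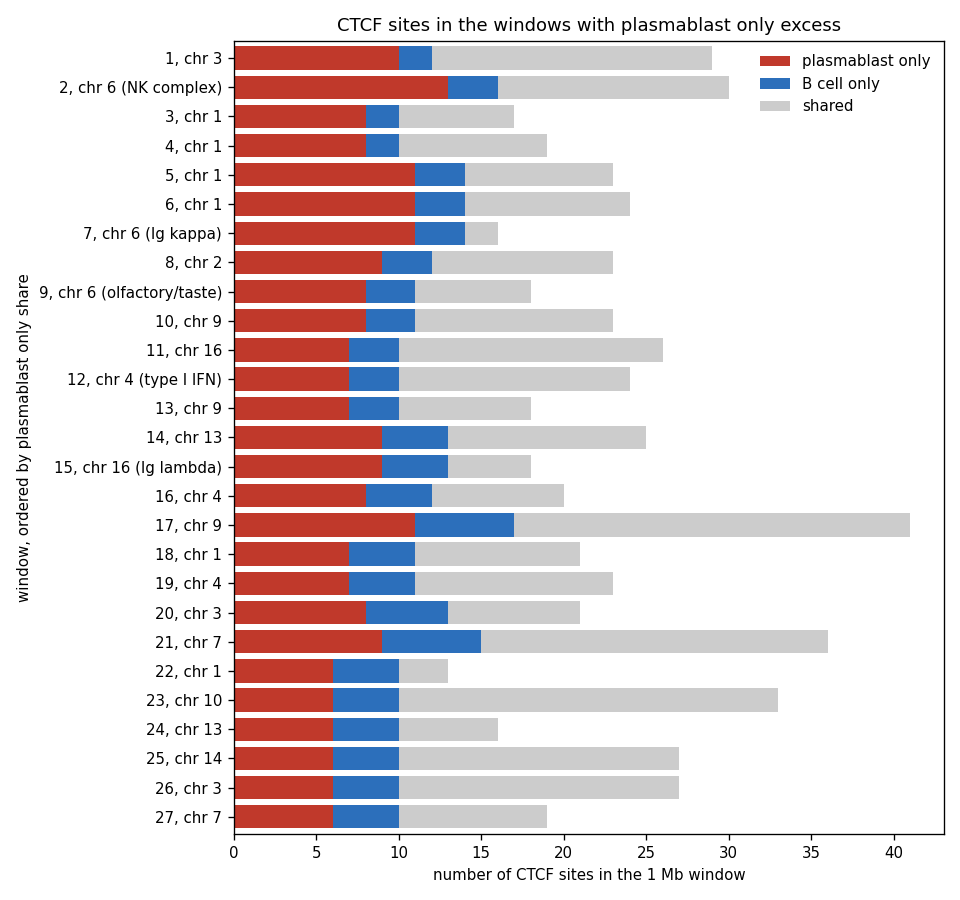
Numbers of plasmablast only (red), B cell only (blue) and shared (grey) CTCF sites in each of the 27 windows, stacked along the horizontal axis; windows run from the highest plasmablast only share at the top to the lowest, numbered in that order and labelled by chromosome and, for 5 of them, by gene cluster. Plasmablast only sites range from 6 to 13 per window and shared sites from 2 to 24.

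The windows were spread over 11 of the 19 autosomes. Chromosome 1 held 6 of them out of 51 windows with enough unshared peaks (11.8%), and chromosomes 3, 4, 6 and 9 held 3 each. Chromosomes 7, 13 and 16 held 2 each, and chromosomes 2, 10 and 14 held 1 each. Chromosomes 5 and 11, with 61 and 59 such windows, held none. The 2 windows on chromosome 9 from 95000001 to 96000000 and from 96000001 to 97000000 (mm9, as all positions here, counted from 1) were the only members that adjoined each other.

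The highest plasmablast only shares belonged to 8 windows with 75% or more. On chromosome 3 from 58000001 to 59000000 there were 10 plasmablast only and 2 B cell only peaks beside 17 shared sites (83.3%). This window kept most B cell peaks in common with plasmablasts: 17 of its 19 B cell peaks were shared. Its plasmablast only peaks stood close to B cell sites, at a median of 1.94 kb from the nearest B cell midpoint. The strongest of them, at 58459275 to 58459453, had a plasmablast score of 45.6 and lay 2.08 kb from a B cell midpoint. The strongest shared peak of the window in plasmablasts, at 58924525 to 58924703, was at the 92.2nd percentile of the list in plasmablasts and the 81.8th in B cells. The score is the authors' own value per peak, and its unit is not stated, so it is read only as a percentile within its own list, where 100 is the strongest peak.

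Chromosome 1 supplied 4 of the 8 leading windows. The windows starting at 140000001 and 162000001 each held 11 plasmablast only and 3 B cell only peaks, and those starting at 80000001 and 152000001 each held 8 and 2. The plasmablast only peaks of these windows were far from B cell sites: 30 of 38 lay more than 10 kb from any B cell midpoint. In the window from 152000001 to 153000000, 6 of the 8 plasmablast only peaks exceeded the plasmablast list's median score, and all 8 had scores from 4.1 to 39.2 with a median of 26.6. One of them, at 152671848 to 152672026 with a score of 26.9, was 169.0 kb from the nearest B cell midpoint. In the other 3 windows only 1, 2 and 4 plasmablast only peaks were above the list median. The strongest ones there were at 80177685 to 80177863 (score 35.1), 140224914 to 140225092 (42.5) and 162329675 to 162329853 (45.6). The last leading window, on chromosome 2 from 13000001 to 14000000, had 9 plasmablast only and 3 B cell only peaks beside 11 shared sites. Its strongest plasmablast only peak, at 13777247 to 13777425, scored 24 and lay 61.9 kb from a B cell midpoint.

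At 5 of the 27 windows the position is known to carry a cluster of related genes. These names are background from general knowledge of the mm9 map and not from an annotation of that build. The RefSeq gene table of GRCm38 was used only to count family names per chromosome. The clusters are the immunoglobulin kappa and natural killer complex loci and an olfactory and bitter taste receptor cluster on chromosome 6, the type I interferon cluster on chromosome 4, and the immunoglobulin lambda locus on chromosome 16, which olfactory receptor genes adjoin. The 5 windows were chosen by this knowledge with their peaks in view. No cluster is named for the other 22 windows. Windows outside the members were not searched for clusters, so the 5 have no share to be set beside and show no excess.

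The immunoglobulin kappa window, on chromosome 6 from 68000001 to 69000000, had the fewest shared sites of the 27. It lies within the stretch of variable gene segments, of which the RefSeq table names 162 with the prefix Igkv on chromosome 6. Plasmablasts had 13 peaks there and B cells had 5, with 2 shared sites, 11 plasmablast only peaks and 3 B cell only peaks. Only 15.4% of its plasmablast peaks were shared, the lowest value among the 27 windows. Both shared sites were moderately strong in both lists: the one at 68052585 to 68052763 was at the 75th percentile in plasmablasts and the 78.2nd in B cells, and the one at 68618511 to 68618689 was at the 73.2nd in plasmablasts and the 74.1st in B cells.

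Between them and beyond them the plasmablast only peaks were all weak but widely spread. Their plasmablast scores ran from 5.7 to 17.3, and none of the 11 was above the median of the plasmablast list. The highest was at 68151536 to 68151714, at the 45.9th percentile and 52.4 kb from the nearest B cell midpoint. In all, 10 of the 11 lay more than 10 kb from a B cell midpoint, and the exception, at 68721608 to 68721786, stood 0.323 kb from a B cell only peak. A run of 7 plasmablast only peaks spanning 310 kb had no B cell peak between its members. No other window of the 27 had a run of more than 4. The B cell only peaks of the window were weak as well, at the 5.17th to 35.2nd percentile of the B cell list.

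The immunoglobulin lambda window, on chromosome 16 from 19000001 to 20000000, also held mostly weak plasmablast only peaks. Their median percentile was 29.2, against 35.2 in the kappa window. Such values were not particular to these loci, as the median over the 27 windows was 30.5. The shared sites differed, with median percentiles of 63.9 in plasmablasts and 55.9 in B cells, against 74.1 and 76.2 in the kappa window. The mouse lambda locus is small, and the RefSeq table names 3 Iglv variable, 5 Iglj joining and 4 Iglc constant entries on chromosome 16. The window held 9 plasmablast only and 4 B cell only peaks beside 5 shared sites, and 1 of the 9 was above the list median. A run of 4 plasmablast only peaks without a B cell peak between them spanned 420 kb, the longest span among the 27 windows. Without an mm9 annotation it was not determined how much of that span lies in the lambda locus and how much beside it. Near the start of the window the same arrangement occurred 2 times. A plasmablast only peak at 19002739 to 19002917 preceded a shared site at 19003162 to 19003340, and another at 19146352 to 19146530 preceded a shared site at 19146794 to 19146972. The plasmablast only peaks of these pairs were 0.462 and 0.472 kb from the B cell midpoint and had plasmablast scores of 25.6 and 14.6. The shared sites were at the 69.6th and 72.7th percentile in plasmablasts and the 58.3rd and 60.3rd in B cells.

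The natural killer gene complex encodes lectin-like receptors of natural killer cells, and the RefSeq table names 16 Klra, 6 Klrb1, 3 Klrc and 9 Clec2 entries on chromosome 6. Its window, from 129000001 to 130000000, had the most plasmablast only peaks of all 27, 13 beside 3 B cell only peaks and 14 shared sites. These values are of that window and not of the complex as a whole. The window just before it held 3 plasmablast only and 9 B cell only peaks beside 30 shared sites (25%). The last of its plasmablast only peaks, at 129775698 to 129775876, stood apart from the others, which ended with the one at 129531423 to 129531601. Up to 8 of them fell within 200 kb, more than in any other of the 27 windows. Windows outside the 27 were not ranked by this count. A short group of 4 lay between 129192103 and 129210344, at the 49.3rd, 71.5th, 86.6th and 78.9th percentile of the plasmablast list. That group was not empty in B cells: it interleaved with 1 shared site and with B cell only peaks at 129195854 to 129196158 and 129208677 to 129208981, which were at the 30.2nd and 21.1st percentile of the B cell list.

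Several shared sites of the natural killer complex window had unlike ranks in the lists. The site at 129045253 to 129045431 was at the 86.7th percentile in plasmablasts and the 24.9th in B cells, and the one at 129316006 to 129316184 at the 92.3rd in plasmablasts and the 50.9th in B cells. The site at 129130427 to 129130605 went the other way, at the 1.05th percentile in plasmablasts and the 70.5th in B cells. Of the 14 shared sites, 8 had the higher percentile in plasmablasts.

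The type I interferon window, on chromosome 4 from 88000001 to 89000000, had the strongest plasmablast only peaks by median. Type I interferons are secreted antiviral cytokines, and the RefSeq table names 15 Ifna entries on chromosome 4. The 7 plasmablast only peaks had a median percentile of 69.6, the highest of the 27 windows, and 6 of 7 were above the list median. The strongest was at 88189889 to 88190067 with a plasmablast score of 55.5, at the 90.2nd percentile and 6.29 kb from a B cell midpoint. Those at 88775251 to 88775429 (score 49.1) and 88792336 to 88792514 (44.3) stood 1.17 and 0.964 kb from B cell midpoints, each beside a shared site. The shared sites themselves were strong in both lists, with median percentiles of 70.7 in plasmablasts and 86.0 in B cells. No other window of the 27 had a higher median for shared sites in the B cell list. The B cell only peaks of the window were at the 16.9th to 33.7th percentile of their list.

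The olfactory and bitter taste receptor window, on chromosome 6 from 42000001 to 43000000, held 8 plasmablast only and 3 B cell only peaks beside 7 shared sites. Olfactory and bitter taste receptors are best known from sensory cells of the nose and tongue. The strongest plasmablast only peak, at 42330547 to 42330725, scored 44.0 and was 0.318 kb from a B cell only peak at the 10.3rd percentile of the B cell list, so the intervals were neighbours without touching. Another, at 42810318 to 42810496 with a score of 27.6, was 162.0 kb from the nearest B cell midpoint.

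**Figure D2:**
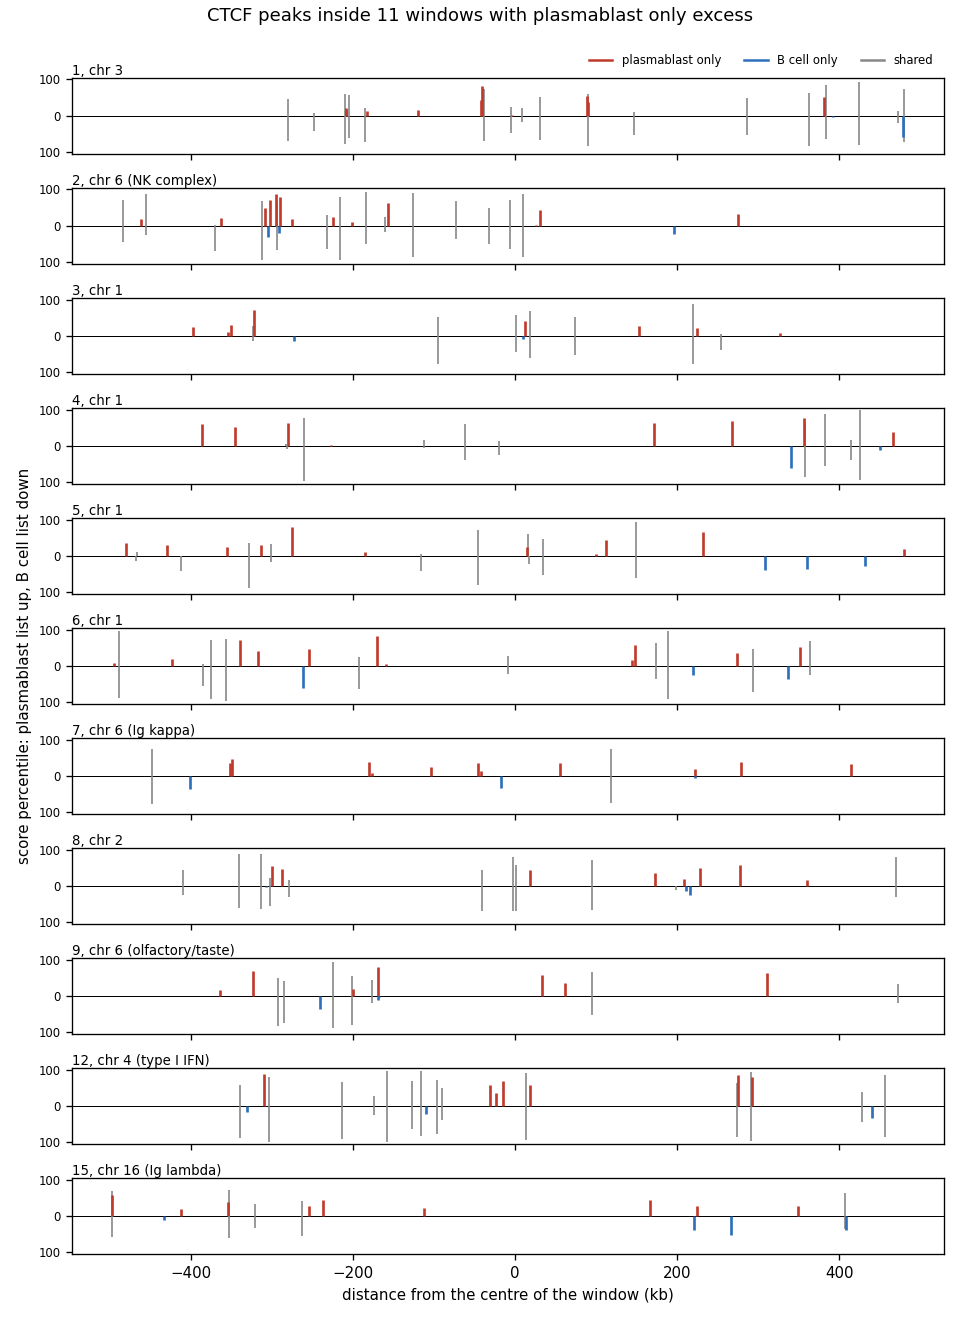
Peaks inside 11 windows, the 8 with the highest plasmablast only share and the 5 at known gene clusters (2 are both), by distance from the window's centre in kb; line height is the score percentile within the list, plasmablast list upward and B cell list downward, with plasmablast only peaks in red, B cell only in blue and shared sites in grey. In the immunoglobulin kappa panel all 11 red lines stay below the 46th percentile, whereas the interferon panel has 6 of 7 above the 50th.

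Plasmablast only peaks of the 27 windows mostly ranked below the median of their list, as unshared peaks were elsewhere. Their median percentile was 32.5 (quartiles 16 and 53.4), against 25.5 (11.1 and 48.6) in the other 746 windows. In windows with a similar number of shared sites (8 to 15 per window, 202 windows) the median was 29.2 (11.1 and 53.2). Members without the 5 gene cluster windows also had a median of 29.2. Among the 222 peaks, 63 exceeded the plasmablast list's median score (28.4%), beside 25% of all 6049 plasmablast only peaks on the autosomes. In the windows of similar shared site number it was 27.5%. The highest decile of the list held 2 of the 222 (0.901%), beside 2.02% in the other windows, a comparison that rests on only 2 peaks. These were the interferon window's peak at 88189889 and a peak on chromosome 9 at 96473778 to 96473956, which had a score of 90.3 (99.4th percentile) and lay 24.6 kb from a B cell midpoint. The next of the 10 strongest included a peak on chromosome 1 at 165840596 to 165840774 (score 47.4), 98.9 kb from a B cell midpoint, and one on chromosome 13 at 110003293 to 110003471 (45.0), 2.58 kb away. The tenth was on chromosome 7 at 97146600 to 97146778 (44.1), 18.4 kb away.

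The windows differed among themselves in this respect. The median percentile of the plasmablast only peaks ran from 11.1 in the chromosome 9 window starting at 96000001, which also held the strongest single peak, to 69.6 in the interferon window. The second highest median was 61.2, in the chromosome 1 window starting at 152000001. In 4 of the 27 windows no plasmablast only peak was above the list median.

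B cell only peaks of the member windows were weak too. Their median percentile in the B cell list was 23.7 (quartiles 10.3 and 34.4), against 21.1 (8.55 and 35.9) elsewhere. Only 5 of the 97 were above the median score of the B cell list (5.15%), compared with 10.2% in the other 746 windows. The 5.15% rests on those 5 peaks.

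**Figure D3:**
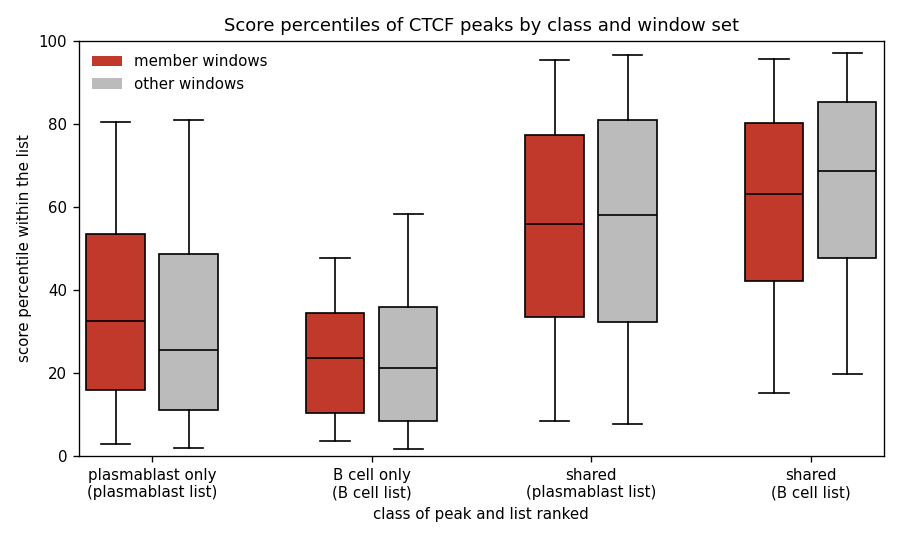
Score percentiles within the list named below each pair, for plasmablast only, B cell only and shared peaks, in the 27 member windows (red) and the other 746 windows (grey); boxes span the quartiles, lines inside them mark medians and whiskers reach the 5th and 95th percentiles. Medians of plasmablast only peaks are 32.5 in the members and 25.5 in the others, and those of shared sites in the B cell list are 63.0 and 68.7.

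Member windows had fewer shared CTCF sites than the other windows with 10 or more unshared peaks, but about as many as autosomal windows in general. They had a median of 10 shared sites (quartiles 8 and 15), against 20 (14 and 28) in the other 746 windows. Their mean was 11.5 shared sites per window, against 11.3 over all 2133 autosomal windows with a peak, so the low number holds only beside windows that met the same minimum of unshared peaks. No window with more than 24 shared sites was a member, although 239 of the 773 had 25 or more. Among windows with 2 to 8 shared sites 13.2% were members, among those with 9 to 16 it was 5.08%, and among those with 17 to 24 it was 2.61%. Over the 773 windows the plasmablast only share and the number of shared sites had a Spearman rank correlation of -0.21. The windows come from the same pair of libraries and do not count as replicates. In the member windows 58.3% of the plasmablast peaks and 76.2% of the B cell peaks were shared. Elsewhere the order was the opposite, with 82.7% and 65.6%. The rule sets this order in the members only. Over all autosomal windows 11500 unshared peaks were B cell only and 6049 were plasmablast only.

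**Figure D4:**
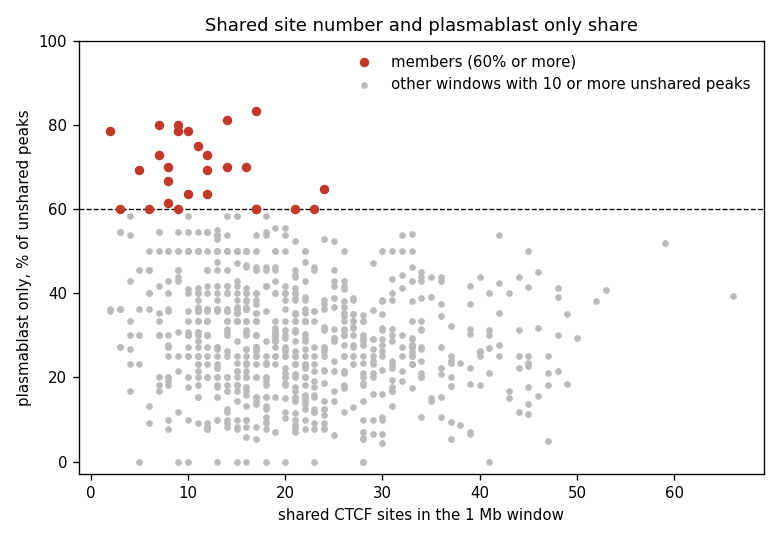
Each point is 1 of the 773 windows of 1 Mb, with its number of shared CTCF sites on the horizontal axis and the plasmablast only percentage of its unshared peaks on the vertical axis; the 27 members are red and the dashed line marks 60%. Members lie between 2 and 24 shared sites, while other windows reach 66.

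Distance to the nearest B cell site differed between the window sets. The plasmablast only peaks of the member windows lay a median of 17.4 kb from a B cell midpoint, against 5.13 kb in the other windows. Since the rule itself selects windows with few B cell only peaks, part of this gap was fixed in advance. In windows with a similar number of shared sites (8 to 15 per window, 202 windows) the median was 8.44 kb. Of the 222 peaks, 58.1% were more than 10 kb from a B cell midpoint, beside 50.8% of all autosomal plasmablast only peaks, and 50 (22.5%) were more than 50 kb away, beside 19.1% of all autosomal plasmablast only peaks. In the other 746 windows 6.6% were that far away, and in those of similar shared site number 9.82%. Peaks beside but not touching a B cell peak, with midpoints at most 500 bp apart, were 9 of 222 (4.05%). The share was 8.44% in the other windows and 11.3% in those of similar shared site number. This gap too was fixed in part by the rule.

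At the 311 shared sites of the member windows, the plasmablast percentile minus the B cell percentile had a median of -6.1 points, against -7.83 in the other windows and -7.23 in those of similar shared site number. With lists limited to peaks at or above their 25th score percentile the sign turned, to 0.5 in the members, against -5.68 in the other windows. Without the 5 gene cluster windows the members had -7.5. The median over all autosomal windows was -7.3. The plasmablast percentile was the higher one at 123 of the 311 sites (39.5%), beside 33.6% of all 24186 autosomal shared sites. The median percentile was 55.8 in plasmablasts and 63.0 in B cells in the members, and 58.0 and 68.7 in the other windows. In windows of similar shared site number these medians were 54.4 in plasmablasts and 62.2 in B cells. The members thus ranked below the other windows as a whole and slightly above this pooled set. That order varied with site number. With 2 to 8 sites the members were lower in both lists, at 44.8 against 54.5 in plasmablasts and 58.3 against 60.8 in B cells. With 9 to 16 the members were higher in plasmablasts (58.0 against 54.4) and lower in B cells (60.8 against 62.7). With 17 to 24 the members were higher in both, at 57.1 against 56.4 in plasmablasts and 71.5 against 66.0 in B cells. Within strata of like shared site number the members' median difference was -2.86 (2 to 8 sites), -4.53 (9 to 16) and -7.5 (17 to 24), and that of the other windows was -3.02, -7.16 and -8.14. The median difference was above 0 in 6 of the 27 windows, beside 82 of the 746 other windows and 36 of the 202 of similar shared site number. Among the members it was highest at 18.0 points on chromosome 1 from 165000001 to 166000000, where there were 3 shared sites. At the 5 gene cluster windows the median over 42 shared sites was -0.0397, and 21 of the 42 had the higher percentile in plasmablasts.

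The windows beside the members were also examined. Their peaks did not make the members qualify, but neighbours that met the rule themselves were left out. In the 50 adjoining windows that were not members themselves, 144 unshared peaks were plasmablast only and 182 were B cell only, a share of 44.2%. All windows on the autosomes together, members included, had 34.5%, and those neither member nor adjoining had 33.6%. Of the latter, windows of like shared site number (3 to 11, 748 windows) had 39.6%. Adjoining windows held 8.66 shared sites on average, against 6.55 in that last set. More plasmablast only than B cell only peaks were present in 18 of the 50 adjoining windows, fewer in 24 and equal numbers in 8. That is 36% of the adjoining windows, beside 26.8% of all autosomal windows and 25.6% of those neither member nor adjoining. Among those of like shared site number it was 27.8%. Windows at offsets of 2 to 5 Mb ranged from 36.2% to 47.4%, so the shares beside the members did not fall steadily with distance.

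**Figure D5:**
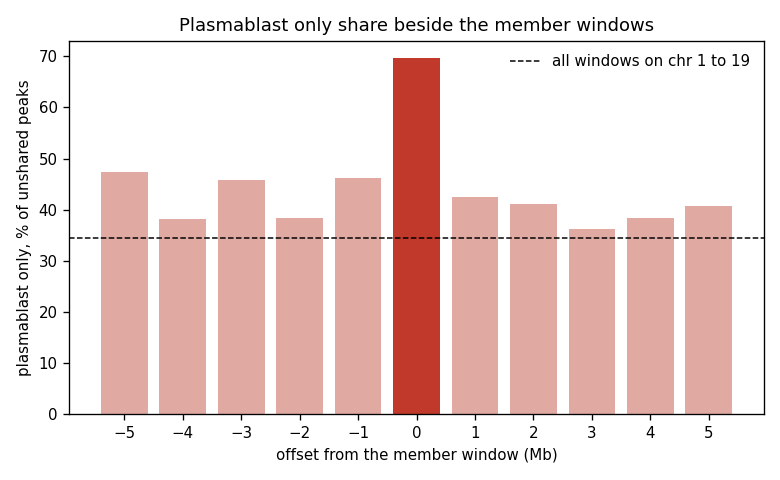
Plasmablast only percentage of the unshared peaks, pooled over windows at each offset in Mb from the 27 member windows (members left out at offsets other than 0); the dashed line is the value of all autosomal windows, 34.5%. The value at offset 0, 69.6%, is set by the rule, and the neighbours at -1 and 1 Mb have 46.2% and 42.4%.

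Which stretches count as members depended strongly on where the window borders fell. With borders shifted by 500 kb, 32 windows met the rule, but they contained only 69 of the 222 plasmablast only peaks. Among lists limited to peaks at or above their 25th score percentile, 15 windows met the rule and 8 of the 27 were among them. With 15 or more unshared peaks required, 3 windows were left: the natural killer complex window, the chromosome 9 window starting at 96000001 and the chromosome 7 window from 120000001 to 121000000.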

How the data were processed

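CTCF chromatin immunoprecipitation sequencing peak lists of plasmablasts (31086 peaks, all but 1 of 179 bp) and B cells (36381 peaks of 305 bp) were analysed, 1 list per CTCF library. Input libraries were not analysed here. Bowtie, HOMER and mm9 are named, per the submitters' processing notes. Tool versions, calling thresholds and any use of the input were not given in the sources used here. As deposited by the authors, the score column has no stated unit, so it was ranked within each list only (percentiles over the whole list). No file gives the number of reads, so sequencing depth is unknown and an unlisted site may still be bound. Positions were read as BED, with 1 added to each start. Overlaps, windows and nearest midpoints were computed in Python 3.11.15 with numpy 2.4.6, pandas 2.3.3 and scipy 1.17.1, and figures drawn in matplotlib 3.10.9. Overlap and window calls were checked on simulated data. Those data held no peak pairs near the overlap limit and no windows near the rule's limits, so such cases were not checked. No test was run.

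The windows named are the 8 with the highest plasmablast only share, adjoining members, those at known gene clusters and some others. Windows at the threshold and just outside it are mostly given as counts only. The peaks named are the 10 strongest plasmablast only peaks over all members, of which those that matter are given, and the strongest in each of the 8 windows; others were named with their values in view. The members and lists were chosen with earlier results of these data known. No mm9 genome or annotation was used here, so no sequence, gene distance or motif is given. Alternatives changed the overlap, list threshold, window borders, rule thresholds, chromosomes and percentile base.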

Additional observations from a re-analysis of the deposited data

How the results depend on the processing

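Of 75 values recomputed under 10 alternatives, 62 stayed within 1.5 times the count or the 95% binomial interval of the share or median. Of the rest, 12 moved and 1 changed sign, and the causes were not tested. These intervals treat peaks of 1 library as independent, and the alternatives reuse the same lists, so they measure no replicate spread. The rule itself sets the plasmablast only share. With borders shifted by 500 kb every value stayed, though only 69 of the 222 plasmablast only peaks were kept. With lists limited to peaks at or above their 25th score percentile, the number of windows was 15 in place of 27, 52.4% of plasmablast peaks were shared in place of 58.3%, the median percentiles of plasmablast only and B cell only peaks were 47.5 and 38.8, the distance to a B cell midpoint was 24.3 kb, and the percentile difference at shared sites was 0.5 in place of -6.1. Raised percentiles follow from that limit itself. With 15 or more unshared peaks, 3 windows had a median of 21 shared sites, 64.1% of plasmablast peaks shared and a plasmablast only median percentile of 21.3. With a share of 70% or more, 13 windows had 76.6% plasmablast only and 53.5% of plasmablast peaks shared. Under 50% reciprocal overlap 37 windows met the rule (26 of the 27 among them), and with midpoints within 500 bp 26 did (24 of the 27). The X chromosome added 3 of its 9 windows with enough unshared peaks. Leaving out the 5 gene cluster windows, or those on chromosome 1, was chosen after seeing the data and moved no value past these limits. No paired analysis was possible because each cell type had 1 CTCF library, and for the same reason none was left out in turn.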
